A study of Mus musculus with 2 samples.

Results

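Gjb2, Gjb6, Cldn11 and Tjp1 are 4 junction genes of the stria vascularis, chosen by their symbols, and all 4 were among the 4197 genes of the table examined. Gjb2 and Gjb6 encode the gap junction proteins Cx26 and Cx30, Cldn11 encodes a claudin of the tight junction strand, and Tjp1 encodes the scaffold protein ZO1. The series compares sorted cells from the lateral wall of the cochlea in mice at P0, the day of birth, that carried Cre driven by Wnt1 (labelled wnt1CRE::Ai3 for the GFP positive sample and wnt1CRE::Ai4 for the GFP negative sample) together with a fluorescent reporter. Walls were dissociated with trypsin and the cells were sorted into a GFP positive fraction, meant to hold the intermediate cells of the stria, and a GFP negative fraction of other lateral wall cells. The Wnt1 driver marks the neural crest lineage as a whole, so glia of the wall can carry the reporter as well, and the protocol does not say how many animals entered a sort. The labels list 1 sample per fraction.

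The stria vascularis secretes endolymph and generates the endocochlear potential between layers of cells that are coupled in different ways. Connexins form channels between the cytoplasm of adjoining cells, and in the adult stria they join intermediate cells, basal cells and the fibrocytes of the spiral ligament into a network through which potassium is thought to return to the stria. Claudins form the strands of tight junctions, and the claudin of the basal cell layer seals the stria electrically from the ligament. ZO proteins bind claudins and also connexins at the inner face of the membrane and tie them to actin.

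For each gene the table gives the authors' mean of normalised read counts in GFP positive cells and the count of GFP negative cells on the same scale. That this mean is an average of 2 libraries, called A and B here, was worked out from the values. Whether A and B came from separate sorts is not given in the sources used here. Listed genes held 17120511 reads in library A, 16584559 in library B and 12114107 in the GFP negative library. In the authors' deposited table, the adjusted p was at most 0.00986 for each gene and the ratio of the fractions was at least 2-fold, so genes outside the table went without a value, which says nothing about their levels. A single GFP negative library leaves the differences without a check against replicates, and the 95% intervals beside folds are exact binomial (Clopper-Pearson) intervals that cover counting error only. The marker lists were chosen with earlier results of these data known, so they describe the fractions and are no test of the sort. Of 13 intermediate cell genes, 13 were listed and all were higher in GFP positive cells. Their summed value was 2093191 in GFP positive cells against 18190 in GFP negative cells. All 8 listed of 10 fibrocyte genes were lower, with a summed value of 74557 in GFP positive cells against 999649 in GFP negative cells. Of 10 epithelial genes, Epcam and Cdh1 among them, 0 were listed, and no listed gene stood at 0 reads in either fraction. Both listed of 12 marginal cell genes, the 1 listed of 6 spindle and root cell genes, 8 of 8 leukocyte genes and 6 listed of 7 red blood cell genes were lower. Of 9 pericyte genes 8 were listed, and 2 of these were higher and 6 lower. Over all listed genes, 43.6% were higher and 56.4% lower.

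The connexin genes were higher in GFP positive cells and the tight junction genes were lower. Gjb2 was 5.59-fold and Gjb6 16.0-fold higher, while Cldn11 was 3.39-fold and Tjp1 2.79-fold lower. Of the 4 genes, 2 were listed as higher, against 43.6% of all listed genes, and 2 as lower, against 56.4%. At a difference of 4-fold or more where the higher fraction reached at least 5, 2 of the 4 genes were higher, against 18.1% of listed genes, and 0 of the 4 were lower, against 36.9%. These are differences in RNA of whole sorted fractions, in which fewer cells of a type and less RNA per cell cannot be told apart. Libraries A and B lay on opposite sides of the GFP negative library for 0 of the 4197 listed genes. That both lay on the same side is therefore no separate support for any of the 4 genes.

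**Figure D1:**
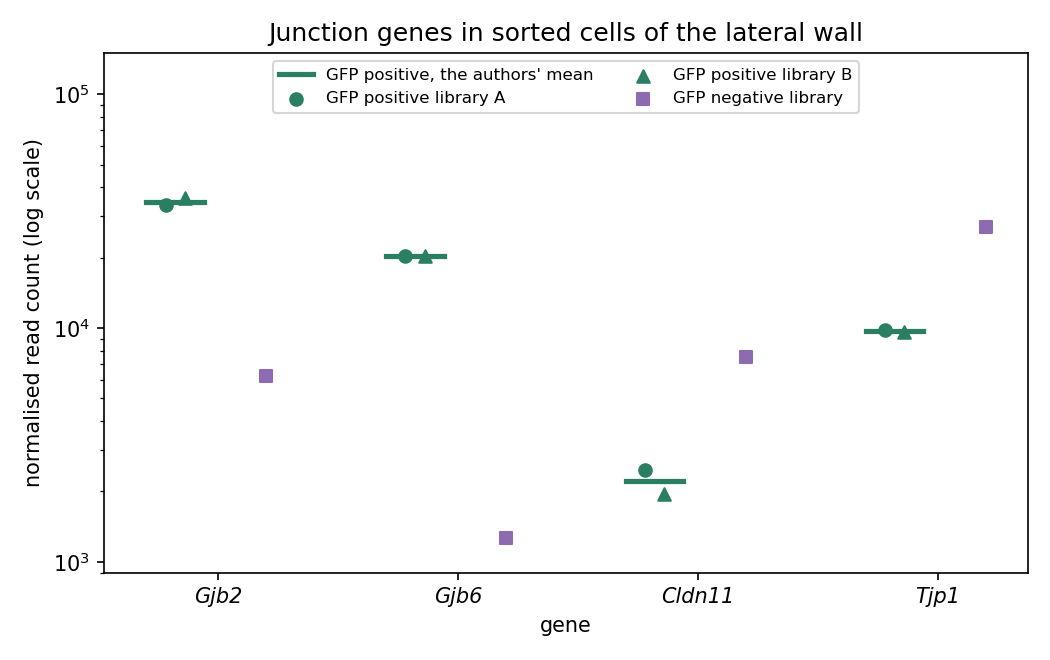
Normalised read count (log scale) of Gjb2, Gjb6, Cldn11 and Tjp1, with green circles and triangles for GFP positive libraries A and B, a green line for the authors' mean and a purple square for the GFP negative library. Both GFP positive libraries lie above the GFP negative library for Gjb2 and Gjb6 and below it for Cldn11 and Tjp1. No listed gene had A and B on opposite sides of the GFP negative library.

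Gjb2 encodes the connexin whose loss is the most frequent cause of inherited deafness in many human populations. It had 36027 reads in library A and 35598 in library B, against 5948 in the GFP negative library. The normalised read counts were 33531 in A and 35916 in B, with an authors' mean of 34724, against 6210 in GFP negative cells. Both GFP positive libraries were above the GFP negative library, and the ratio of the mean was 5.59 (5.44 to 5.73). With library A alone the ratio was 5.40 and with library B alone 5.78, both outside this counting interval. In the authors' deposited table the adjusted p was 9.62e-74. Gjb2 ranked 62 among the 4197 listed genes by its GFP positive value and 353 by its GFP negative value. The GFP negative value came to 17.9% of the GFP positive value.

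Gjb6 encodes Cx30, which forms mixed channels with Cx26 in the cochlea and is also tied to inherited deafness. It had 21742 reads in library A and 20065 in library B, against 1212 in the GFP negative library. The normalised read counts were 20236 in A and 20244 in B, with an authors' mean of 20240, against 1265 in GFP negative cells. Libraries A and B were nearly equal (ratio 1.0, 0.981 to 1.02), and both lay above the GFP negative library by 16.0-fold (15.1 to 16.9 for the mean). The authors' deposited table gives an adjusted p of 2.22e-271. Among the 1831 genes listed as higher, Gjb6 ranked 196 by its log2 ratio of 4.0, and Gjb2 ranked 549 with 2.48. The GFP negative value of Gjb6 was 6.25% of its GFP positive value.

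The difference of Gjb6 was larger than that of Gjb2 within the same libraries. Gjb2 reads outnumbered Gjb6 reads by 1.66-fold in library A and 1.77-fold in library B, against 4.91-fold in the GFP negative library. The odds ratio of Gjb6 to Gjb2 reads between the fractions was 2.86 (2.69 to 3.05, exact conditional interval), a comparison in which any scaling factor of a library cancels. On the log2 scale the difference was 1.52. Dividing by the joined length of all annotated exons of a gene allows a rough comparison of levels between genes. Per kb of this length, Gjb2 stood at 14432 in GFP positive cells and 2581 in GFP negative cells. Gjb6 stood at 7569 in GFP positive cells and 473 in GFP negative cells. Per exon length the level of Gjb2 was therefore 1.91-fold that of Gjb6 in GFP positive cells and 5.45-fold in GFP negative cells.

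For both connexin genes the GFP negative share can be set beside that of the intermediate cell markers. The summed GFP negative value of the 13 markers was 0.869% of their GFP positive value, with single genes between 0.0845% for Tyr, the key enzyme of melanin synthesis, and 32.7% for Kit, the stem cell factor receptor. Kcnj10 and Kcnj13, the inward rectifier potassium channels of intermediate cells, had log2 ratios of 8.32 and 9.40. Their differences were larger than those of Gjb6 with 4.0 and Gjb2 with 2.48. Gjb2 with 17.9% lay above 12 of the 13 markers and below Kit alone, since the next highest marker, Nrp2, had 8.62%. Gjb6 with 6.25% lay above 10 of the 13. Supporting cells of the sensory epithelium are known to express Gjb2 and Gjb6 as well, and of 6 of their marker genes 5 were listed, 2 higher and 3 lower, with a summed value of 1299 in GFP positive cells against 3192 in GFP negative cells. Which GFP negative cells carried the connexin reads, fibrocytes included, was not tested.

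Cldn11 encodes the claudin that makes up the tight junctions between strial basal cells. It had 2661 reads in library A and 1936 in library B, against 7202 in the GFP negative library. The normalised read counts were 2477 in A and 1953 in B, with an authors' mean of 2215, against 7520 in GFP negative cells. Both GFP positive libraries were below the GFP negative library, and the fold of the mean was 3.39 lower (3.26 to 3.51). With library A alone the fold was 3.04 and with library B alone 3.85, both outside this counting interval. In the authors' deposited table its adjusted p was 1.55e-27. The value in GFP positive cells was 29.5% of that in GFP negative cells. Among the 2366 genes listed as lower, Cldn11 ranked 1742 by the size of its log2 ratio of -1.76, so 73.6% of them had a larger difference.

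Libraries A and B differed in Cldn11 by more than counting error, with a ratio of A over B of 1.27 (1.20 to 1.35). Gjb2 was 0.934 (0.920 to 0.947) in the same ratio, a smaller difference but also beyond counting error, and Tjp1 was 1.01 (0.986 to 1.04). Fibrocyte marker genes had A over B ratios with a median of 1.20, and 6 of the 8 listed ones were above 1. The 4 most abundant of them went both ways, with 1.29 for Otor, 1.35 for Car3 and 1.15 for Crym, but 0.717 for Col1a2. The median ratio was above 1 for red blood cell genes (1.28) and cartilage genes (1.17) as well. It was 0.955 for intermediate cell genes, 0.789 for pericyte genes and 0.991 over all listed genes. A median above 1 was thus not particular to fibrocyte genes. The part of any of these cell types in the Cldn11 value was not tested. Among all listed genes, 20.6% had a larger difference between A and B than Cldn11, in either direction. This share takes in genes with few reads, for which counting error alone is wider. It does not say how usual the difference is among genes read as deeply as Cldn11.

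Tjp1 encodes ZO1, the scaffold under tight junctions, which also binds connexins and is made by many cell types. It had 10510 reads in library A and 9561 in library B, against 25964 in the GFP negative library. The normalised read counts were 9782 in A and 9646 in B, with an authors' mean of 9714, against 27110 in GFP negative cells. Both GFP positive libraries were below the GFP negative library, and the fold of the mean was 2.79 lower (2.74 to 2.84). The adjusted p in the authors' deposited table was 4.86e-67. Tjp1 ranked 65 among listed genes by its GFP negative value and 338 by its GFP positive value. By the size of its log2 ratio of -1.48 it ranked 1970 among the 2366 lower genes.

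The differences of Cldn11 and Tjp1 were closer to each other than to those of the connexin genes. The odds ratio of Tjp1 to Cldn11 reads between the fractions was 1.21 (1.16 to 1.26), which is 0.28 on the log2 scale. With library A alone this difference was 0.13 and with library B alone 0.45. Per kb of exon, Cldn11 stood at 1184 in GFP positive cells and 4021 in GFP negative cells, and Tjp1 at 1244 in GFP positive cells and 3471 in GFP negative cells. The odds ratio of Gjb2 to Cldn11 reads was 18.9 (18.0 to 19.7). Per exon length Gjb2 was 12.2-fold above Cldn11 in GFP positive cells, while in GFP negative cells Cldn11 was 1.56-fold above Gjb2. The order per exon length was Gjb2, Gjb6, Tjp1 and Cldn11 in GFP positive cells, and Cldn11, Tjp1, Gjb2 and Gjb6 in GFP negative cells. Tjp1 and Cldn11 differed in this level by 1.05-fold in GFP positive cells, which is less than the difference of Cldn11 between libraries A and B. The GFP negative order rests on a single library and has no spread to set it against.

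**Figure D2:**
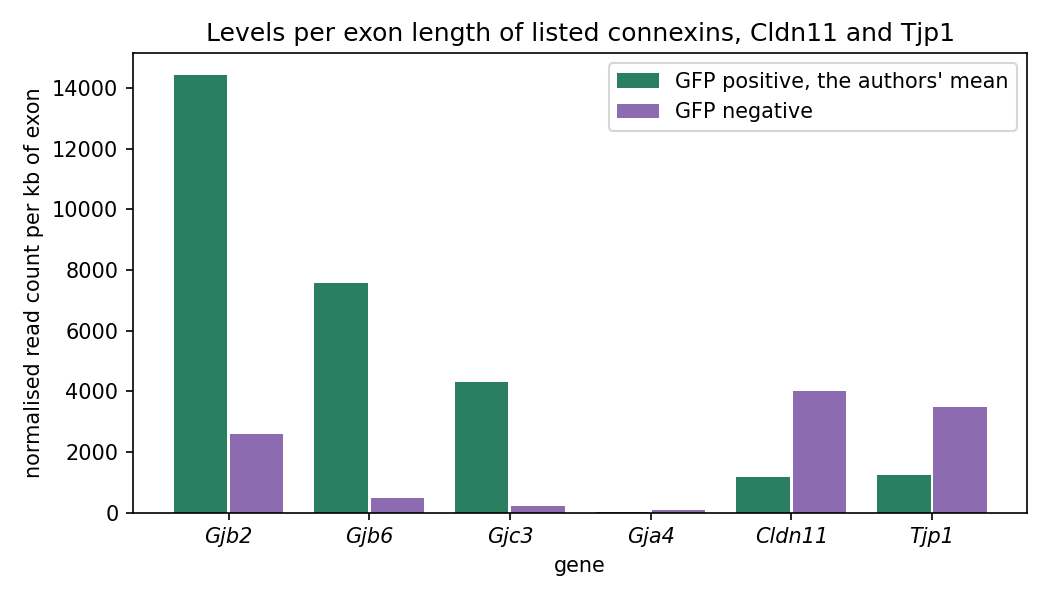
Normalised read count per kb of annotated exon for the 4 listed connexin genes, Cldn11 and Tjp1, with the authors' mean of GFP positive cells in green and the GFP negative library in purple. Gjb2 reaches 14432 in GFP positive cells against 2581 in GFP negative cells, while Cldn11 and Tjp1 are taller in GFP negative cells.

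Other listed markers of the basal layer and of the ligament were lower in GFP positive cells as well, as were 56.4% of all listed genes. Of 4 other basal cell genes, 2 were listed and both were lower, while Slc2a1 and Cldn1 were not listed. With so few genes this says little about basal cells as such. Tbx18, a transcription factor of basal cells and of the fibrocytes of the ligament, stood at 2708 in GFP positive cells against 37137 in GFP negative cells, and Nr2f2, a nuclear receptor, at 1404 in GFP positive cells against 4601 in GFP negative cells. The GFP positive value was 7.29% of the GFP negative value for Tbx18 and 30.5% for Nr2f2. For the 8 fibrocyte genes, Tbx18 included, this share lay between 4.43% and 32.7%, and for their sum it was 7.46%. The upper end was that of Slc4a11 alone, which had 46 reads in library A and 47 in library B, and the next highest gene, Col1a2, had 15%. Cldn11 with 29.5% lay above 7 of the 8 fibrocyte genes, and Tjp1 with 35.8% above all 8. How far transcripts of basal cells or fibrocytes in the GFP positive fraction enter these values was not tested.

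**Figure D3:**
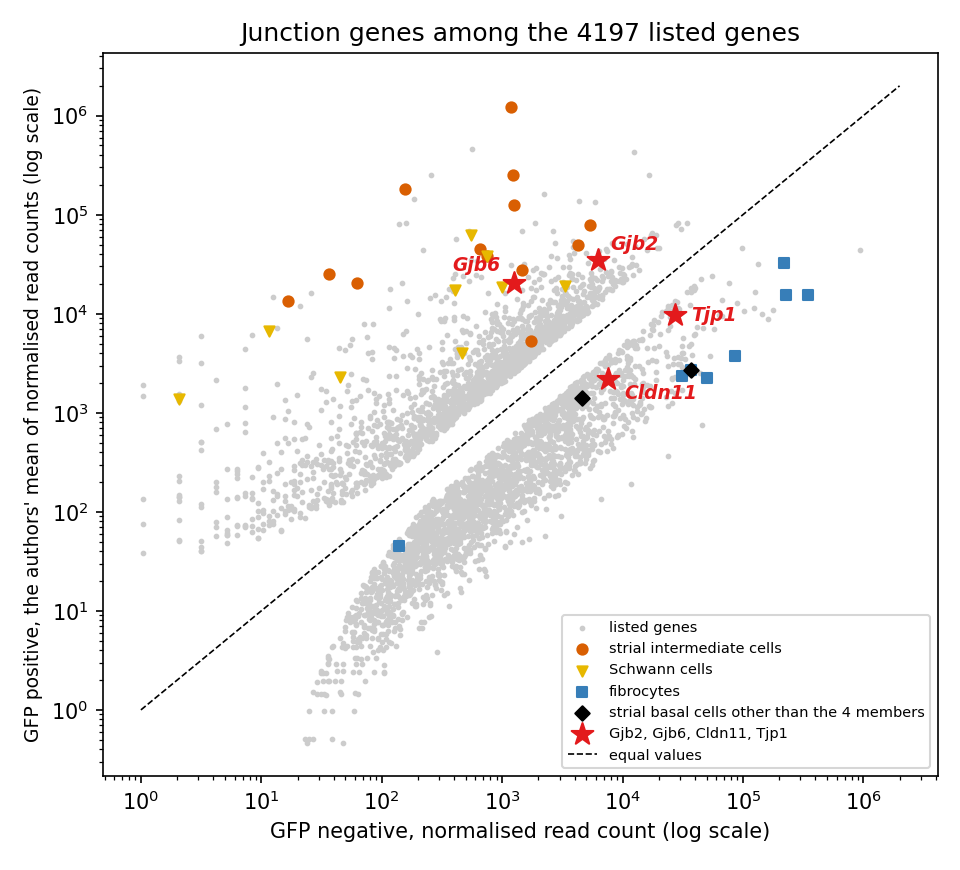
GFP positive value against GFP negative value (both log scales) of the 4197 listed genes in grey, with Gjb2, Gjb6, Cldn11 and Tjp1 as red stars and marker genes in colour. The empty band along the dashed line of equal values comes from the limit on the log2 ratio in the table, and Gjb2 and Gjb6 lie above it, Cldn11 and Tjp1 below it.

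The 300 bases around the transcription start of each gene are shown because Gjb2 and Gjb6 are neighbours that differed in the same direction, while Cldn11 and Tjp1 differed in the other. The sequences are from RefSeq on GRCm38.p6, not on the build used for the reads, and each runs along the gene from 250 bases before the start to 50 bases after it. The windows are chr14:57104653-57104952 on the minus strand for Gjb2, chr14:57133562-57133861 on the minus strand for Gjb6, chr3:31149670-31149969 on the plus strand for Cldn11 and chr7:65371195-65371494 on the minus strand for Tjp1. Capitals mark the GC box GGGCGG, which Sp1-type factors bind, and the CCAAT box CCAAT, on either strand; no matches overlapped.
Gjb2: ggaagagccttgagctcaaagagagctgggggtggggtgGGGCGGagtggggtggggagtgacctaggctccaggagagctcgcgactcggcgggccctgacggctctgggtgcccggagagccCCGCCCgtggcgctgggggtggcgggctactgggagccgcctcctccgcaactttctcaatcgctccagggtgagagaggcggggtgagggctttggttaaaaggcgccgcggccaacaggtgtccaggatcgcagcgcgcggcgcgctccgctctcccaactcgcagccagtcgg
Gjb6: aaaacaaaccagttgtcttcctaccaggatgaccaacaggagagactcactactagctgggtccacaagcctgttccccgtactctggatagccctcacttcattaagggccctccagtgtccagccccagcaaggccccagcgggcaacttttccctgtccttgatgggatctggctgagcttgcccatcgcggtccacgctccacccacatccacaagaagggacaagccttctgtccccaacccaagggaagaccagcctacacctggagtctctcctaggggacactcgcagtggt
Cldn11: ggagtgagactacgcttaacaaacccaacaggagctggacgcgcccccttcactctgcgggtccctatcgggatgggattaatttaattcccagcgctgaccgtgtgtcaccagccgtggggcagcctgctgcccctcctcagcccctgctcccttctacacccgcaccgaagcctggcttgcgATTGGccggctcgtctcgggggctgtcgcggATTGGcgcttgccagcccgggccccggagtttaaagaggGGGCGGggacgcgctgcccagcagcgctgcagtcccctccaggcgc
Tjp1: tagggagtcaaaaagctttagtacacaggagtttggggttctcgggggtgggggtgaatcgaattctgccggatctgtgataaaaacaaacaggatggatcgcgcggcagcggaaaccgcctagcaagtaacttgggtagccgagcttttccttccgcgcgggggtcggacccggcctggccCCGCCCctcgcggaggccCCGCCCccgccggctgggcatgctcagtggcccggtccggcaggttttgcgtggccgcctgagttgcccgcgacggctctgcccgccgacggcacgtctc

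The promoter windows of Gjb2 and Gjb6 differed in composition. The window of Gjb2 had 70.0% G and C and 27 CpG pairs, and that of Gjb6 had 57.3% and 6, against medians of 52.7% and 7 over 32851 RefSeq windows of the same length. Cldn11 had 66.3% and 24, and Tjp1 65.3% and 31. GGGCGG was found in the windows of Gjb2, Cldn11 and Tjp1 and in 35.7% of all windows. In Gjb2 it began 211 and 126 bases before the start, and in Tjp1 68 and 50 bases before it. CCAAT was found in Cldn11 alone among the 4 genes, 66 and 35 bases before the start, and in 37.4% of all windows. The E-boxes CACGTG and CATGTG, which MITF-type factors bind, and the SOX motifs ACAAAG and ACAATG were searched on both strands too and were in none of the 4 windows. They are in 7.15%, 14.2%, 18.7% and 12.6% of all windows. Such matches describe the letters of these windows only.

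Of the 20 connexin genes, 4 were listed, with 3 higher and 1 lower, beside 43.6% higher and 56.4% lower over all listed genes. The third higher one was Gjc3, which encodes Cx29, a connexin of Schwann cells and other myelinating glia. It had 20588 reads in library A and 18305 in library B, against 959 in the GFP negative library, a ratio of 18.8 (17.6 to 20.1). Beside it, 9 of 10 Schwann cell genes were listed and all were higher, Gjc3 and Sox10 included, with a summed value of 169857 in GFP positive cells against 6565 in GFP negative cells. Gja4, a connexin of vessel walls, was lower, with 36 reads in library A and 12 in library B, against 127 in the GFP negative library, and a fold of 5.81 (4.06 to 8.13). With library A alone the fold of Gja4 was 3.96, under the 4-fold threshold, and with library B alone it was 11. All 4 listed of 10 endothelial genes were lower too, as were 56.4% of all listed genes. Their summed value was 1138 in GFP positive cells against 10688 in GFP negative cells.

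Listed connexin genes summed to 73802 in GFP positive cells against 8610 in GFP negative cells, which is 8.57-fold higher. When the 4 listed connexin genes were instead summed per kb of exon, Gjb2 made up 54.8% of the sum in GFP positive cells against 76.8% in GFP negative cells. The share of Gjb6 was 28.7% in GFP positive cells against 14.1% in GFP negative cells, and that of Gjc3 was 16.4% in GFP positive cells against 6.84% in GFP negative cells. The remaining 16 connexin genes, including Gja1, the most widely expressed connexin, and Gja3, the neighbour of Gjb2, were not listed and enter none of these shares. Of the 3 pannexin genes, which encode channels related in fold to connexins, 2 were listed, both lower and both from few reads. Panx3, a pannexin of cartilage and bone, had 23 reads in library A and 6 in library B, against 93 in the GFP negative library. Beside it, 5 of 5 cartilage genes were lower, as were 56.4% of all listed genes. Panx3 was 7.07-fold lower, with 4.54-fold from library A alone and 16.0-fold from library B alone. Panx2 had 22 reads in library A and 18 in library B, against 161 in the GFP negative library.

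Cldn11 was the 1 listed gene among 24 claudin names, and none of the 3 MARVEL genes of the tight junction, Ocln, Marveld2 and Marveld3, was listed. The immunoglobulin-like proteins of tight junctions had 1 higher and 5 lower genes among 6 listed of 10. All 5 lower ones were 4-fold or more lower. Over all listed genes, 56.4% were lower and 36.9% were 4-fold or more lower. Clmp had the largest difference of these, with 355 in GFP positive cells against 4426 in GFP negative cells, a fold of 12.5 lower (11.6 to 13.5). Cxadr, the coxsackievirus and adenovirus receptor, was 9.74-fold lower (9.13 to 10.3), and Ildr2, a protein of tricellular contacts, 8.17-fold (7.42 to 8.98). Jam3, a junctional adhesion molecule, stood at 1670 in GFP positive cells against 7807 in GFP negative cells. Esam, a molecule of endothelial contacts, was 4.55-fold lower (3.92 to 5.25). The higher gene was Lsr, which marks tricellular tight junctions, with 2031 in GFP positive cells against 622 in GFP negative cells, 3.26-fold higher (2.99 to 3.55).

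The plaque under the membrane held genes of both directions, with 2 higher and 2 lower among 4 listed of 26, Tjp1 included. Prkcz, an atypical protein kinase C of the polarity complex, was 4.96-fold higher (4.33 to 5.68), and Afdn, which ties nectins to actin, 2.13-fold (2.06 to 2.19). Amotl2, an angiomotin family protein, stood at 5223 in GFP positive cells against 12069 in GFP negative cells, a log2 ratio of -1.21 that becomes 0.10 after centring on the median listed gene. Of 15 adherens junction genes 3 were listed, all alpha-catenins, which link cadherins to actin. Ctnna1 stood at 30496 in GFP positive cells against 11765 in GFP negative cells, 2.59-fold higher (2.54 to 2.64). Ctnna3 rested on 3 GFP negative reads, with a ratio of 16.2 (5.40 to 80.0), and Ctnna2, the neural form, was 13.4-fold lower (9.49 to 19.8). Of 8 desmosome genes, Pkp4 was 2.45-fold higher and Pkp1 2.25-fold lower. The log2 ratio of Pkp1, -1.17, becomes 0.14 after centring.

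**Figure D4:**
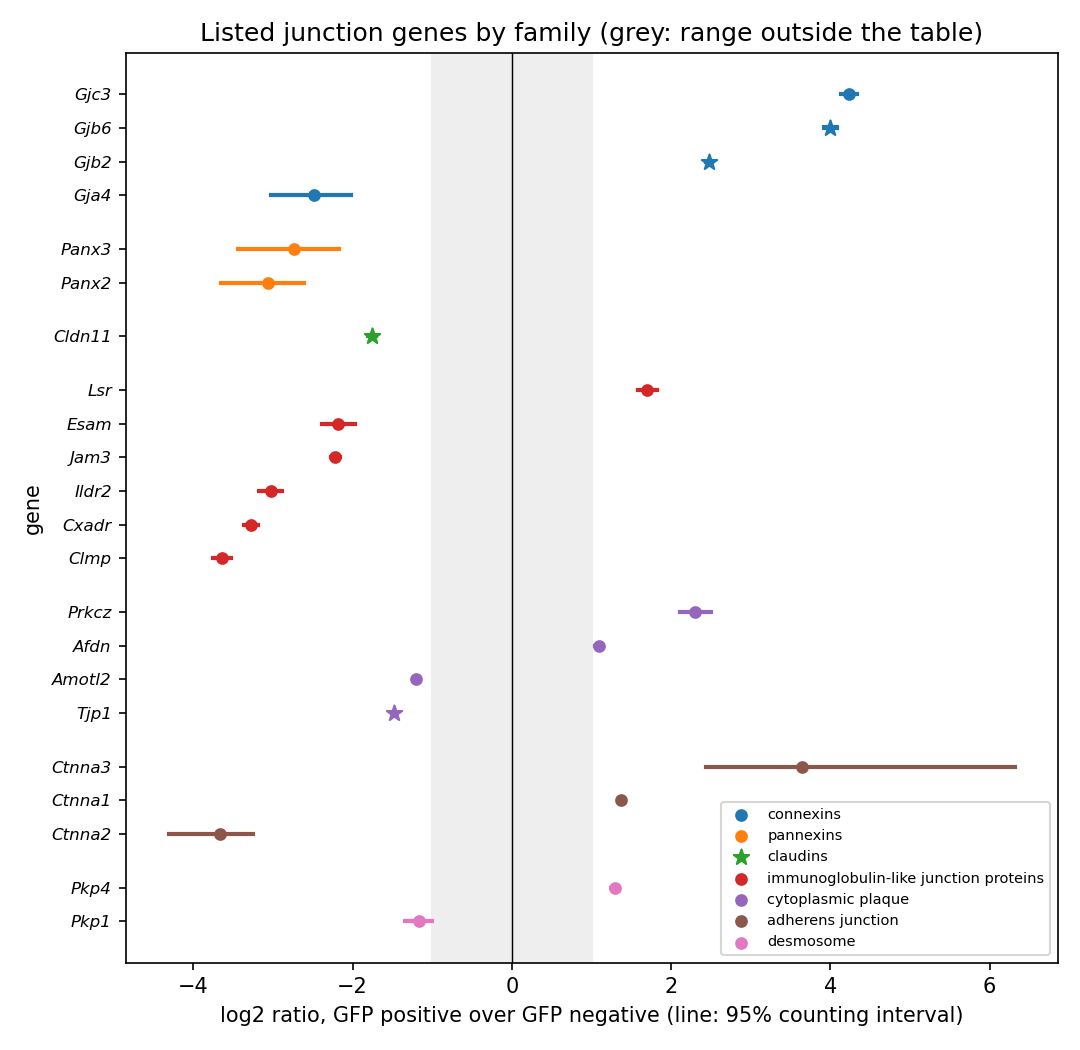
Log2 ratio of GFP positive over GFP negative values for the 22 listed junction genes, coloured by family, with lines for the 95% counting interval and stars for Gjb2, Gjb6, Cldn11 and Tjp1. Connexin genes other than Gja4 lie to the right, and the immunoglobulin-like genes other than Lsr, with Cldn11 and Tjp1, to the left.

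Over all junction lists, 22 of 109 names were listed, 9 higher and 13 lower. The higher ones were 40.9% of the 22, close to the 43.6% over all listed genes. Without Gjb2, Gjb6, Cldn11 and Tjp1, 7 were higher and 11 lower, with a median log2 ratio of -1.69 beside -1.34 over all listed genes. At 4-fold or more, 5 of the 22 were higher and 9 lower, against 18.1% and 36.9% of all listed genes. After centring on the median of those listed genes that reached 5 in both fractions, a shift of -1.31 on the log2 scale, 11 were higher and 11 lower. Centring on a median places about as many listed genes above as below by construction, so this split is not a trait of junction genes. The same centring changed the counts of 4-fold differences over all listed genes to 1831 higher and 466 lower, beside 761 higher and 1549 lower without it. These 1831 are all the genes listed as higher. Each was at least 2-fold higher already, so the shift puts them all past 4-fold by construction. No log2 ratio of Gjb2, Gjb6, Cldn11 or Tjp1 changed sign, but those of Cldn11 and Tjp1 became -0.45 and -0.17. Centring raised every log2 ratio, so Gjb2 and Gjb6 could not change sign. The table leaves out differences under 2-fold, and most of its genes were lower. Its median gene is therefore about 2-fold lower or more by construction, and the shift is no measure of a scaling error.

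Gjb2 and Gjb6 lie next to each other on chromosome 14, on the same strand, with the predicted gene Gm4491 between them in GENCODE M21. Among 14 genes of this neighbourhood, the other two listed ones were lower. Il17d, a cytokine gene, stood at 103 in GFP positive cells against 503 in GFP negative cells. Lats2, a kinase of the Hippo pathway, had a log2 ratio of -1.07, which becomes 0.25 after centring. Gja3 on the Gjb2 side and Cryl1 on the Gjb6 side were not listed.

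The genes nearest to each of the 4 genes in log2(value + 1) over the 2 value columns were looked up among 3900 listed genes with predicted genes left out. For Gjb2 they were Atp1b3, a sodium pump subunit, with 36411 in GFP positive cells against 6239 in GFP negative cells, then Mpzl1 and Aebp1, at distances of 0.069, 0.173 and 0.182. For Gjb6 they were Arhgap20, Gjc3 and Gfra1, a receptor subunit for glial cell line-derived factors, at 0.311, 0.354 and 0.367. Cldn11 was nearest to Dzip1, Arl4a and Rbfox2, at 0.045, 0.077 and 0.137. Tjp1 was nearest to Maged2, Rpsa-ps10 and Col5a2, at 0.134, 0.138 and 0.141, where the reads of the pseudogene Rpsa-ps10 cannot be split with certainty from those of its close copies. With 2 values per gene this is a likeness of levels only.

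Overlapping genes can share reads where strand is not used in counting, which is not given in the sources used here. In GENCODE M21 no annotated gene overlaps Gjb2, Gjb6 or Cldn11. Tjp1 overlaps a processed pseudogene on the opposite strand and a pair of unconfirmed transcripts on its own strand, none of them listed. Of the 24 genes of the junction and neighbourhood lists named here, 14 overlap some annotated gene. Listed genes were among the overlapping ones for Cxadr, with Btg3, and for Clmp, with Gm16096, both on the opposite strand, so the values of these genes are uncertain to that degree.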

How the data were processed

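Per the submitters' processing notes, STAR was the aligner and mm9 the genome build. TruSeq libraries were made, per the labels' protocols. How reads were counted, normalised and tested is not given in the sources used here. Per the file headers, the deposited table holds for each gene an average signal of GFP positive cells, a signal value of the GFP negative library, the ratio of these as such and as log2, and p-values before and after adjustment. The deposited signal values are read counts divided by size factors: 100% of the GFP negative values were whole reads within 1e-06 reads, with a size factor of 0.958. Each average (100%) could be split into whole reads of 2 libraries in 1 way only, within a relative tolerance of 2e-14, with size factors of 1.07 and 0.991. The table does not name these libraries, and its header gives 180K for the average where the GFP positive sample is titled 68K, so the authors' mean is printed without an SD.

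Differences are log2 ratios of GFP positive over GFP negative values with a pseudocount of 1, which understates those of genes with few reads. Folds and ratios are quotients of the deposited values. Intervals come from the recovered reads. With 1 GFP negative library, no test was used for the results. Exon lengths and overlaps are from GENCODE M21 on GRCm38, and 4064 of the gene IDs matched its names, while 133 did not and kept the symbol of the table. The genes named are Gjb2, Gjb6, Cldn11 and Tjp1, every listed gene of the junction lists, and the 3 nearest genes of each of the 4. The rule also allows up to 4 listed genes by value of each marker list, but marker lists are mostly given as sums. Kcnj10, Kcnj13, Kit, Nrp2 and Slc4a11 were named outside the rule after their values were seen, as were overlapping genes. The members and lists were chosen with earlier results of these data known. edgeR's quasi-likelihood test (edgeR 4.0.16, R 4.3.3) on the recovered reads was an alternative, checked on simulated reads. Other steps used Python 3.11.15, scipy 1.17.1 and pandas 2.3.3.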

Additional observations from a re-analysis of the deposited data

How the results depend on the processing

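A pseudocount of 0 or 10 in place of 1 moved none of the log2 ratios of Gjb2, Gjb6, Cldn11 and Tjp1 out of their counting intervals, and no alternative turned the sign of these 4. For Gjb2 and Gjb6 centring could not have done so, since it raised every log2 ratio. Scaling to the listed total gave 2.11 for Gjb2, 3.63 for Gjb6, -2.13 for Cldn11, which then passes 4-fold, and -1.85 for Tjp1. Centring on the median listed gene gave 3.80 for Gjb2, 5.31 for Gjb6, -0.45 for Cldn11 and -0.17 for Tjp1, and both scalings nearly cancel in the differences between these genes. Library A or B alone gave 2.43 to 2.53 for Gjb2, 4.0 for Gjb6 with either, -1.94 to -1.60 for Cldn11 and -1.49 to -1.47 for Tjp1. The log2 difference between Tjp1 and Cldn11 ran from 0.13 to 0.45, that between Gjb2 and Cldn11 from 4.03 to 4.48, and that between Gjb6 and Gjb2 from 1.47 to 1.57. In an alternative chosen after seeing the data, library A or B alone gave log2 ratios of -3.35 to -1.95 for Gja4, which loses its 4-fold call with library A, and of -3.80 to -2.13 for Panx3. The count of listed genes at 4-fold or more was 2310 and stayed between 2082 and 2430 under other pseudocounts, minimum values and scalings. edgeR's quasi-likelihood test on the recovered reads (Benjamini-Hochberg threshold 0.05) called 4197 of the 4197 genes, of which 1831 were higher and 2366 lower. The table had already been filtered on these libraries, so the test compares the libraries and not the conditions. Junction genes listed as higher numbered 9, of which 5 were 4-fold or more. No paired analysis was possible because the labels give 1 sample per fraction. Depth did not limit the 4 genes, which had at least 1212 reads in every library, but it did limit Gja4, Panx2, Panx3, Ctnna2 and Ctnna3.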
